A study of Rattus norvegicus with 18 samples.

Results

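The genes described here are those of the amino acid response driven by the transcription factor ATF4, together with the cytosolic aminoacyl-tRNA synthetases that load tRNAs with their amino acids. They were chosen by name, as 38 symbols listed with earlier results of these data known, and by a mean of at least 1 FPKM (fragments per unit of transcript length and of mapped fragments) over the 6 groups of the deposited table. All 38 had a row, and 36 passed, out of 10545 genes at that level and 17312 in all. Of the passing genes the lowest mean was that of Cth, at 3.50 FPKM. Fgf21 had a mean of 0.405 FPKM and Nupr1 was listed at 0 in all 6 groups, so neither was analysed further. The cells were neonatal rat ventricular myocytes, heart muscle cells grown from the hearts of 2-day-old Sprague-Dawley pups, kept without serum before treatment. The labels do not say whether the 3 libraries of a group came from separate cultures. A pretreatment of 24 h with vehicle or SR9009 was followed by phenylephrine (PE) for 0, 4 or 48 h, which gives 6 groups of 3 libraries: vehicle at 0, 4 and 48 h and SR9009 at 0, 4 and 48 h. SR9009 was made to activate REV-ERBα and REV-ERBβ, nuclear receptors that repress transcription, and PE activates α1-adrenergic receptors and makes cultured myocytes hypertrophic. No group at 4 or 48 h lacked PE, so PE and time in culture cannot be told apart, nor can time with SR9009.

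ATF4 is made when translation initiation factor eIF2 is phosphorylated, which slows most protein synthesis but favours translation of the Atf4 message. The kinases that do this sense scarce amino acids, unfolded protein in the endoplasmic reticulum (ER), viral RNA and low heme. ATF4 pairs with C/EBP-family proteins and binds a composite sequence, the C/EBP-ATF response element, in genes for amino acid synthesis, amino acid uptake, tRNA charging and feedback inhibitors. Growth signals that act through mTORC1 also raise ATF4, so in growing cells its targets can follow the demand for protein as well as stress.

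The element was looked for by its core letters, TGATGNAA, on both strands of the promoter windows of the RefSeq table (build GRCr8), which run from 250 bases before to 50 bases after each gene's start. Of the 36 members 34 matched a window, and 10 of them (29.4%) held the letters, against 3.98% of all 33469 windows of that length and 1.79% of 7920 windows of genes that reach the same mean of 1 FPKM. Those 7920 were found by exact symbol only, while members were also matched through synonyms. Genes since renamed, such as the matched synthetases, are therefore missing from the 7920. Of the 12 matched synthetases 7 held the letters (58.3%). Windows of 8 other cytosolic synthetase and scaffold genes and of 14 mitochondrial synthetase genes gave 0 matches, as did the members among the factors (0 of 5), the secreted products (0 of 2) and the synthesis and one-carbon genes (0 of 7). Of the stress effectors 2 of 4 held the letters and of the transporters 1 of 4. Lists outside the members held them too: 3 of 10 other amino acid metabolism genes, 2 of 10 other amino acid transporters, 1 of 4 other ATF4-associated genes, 1 of 14 eIF2 genes and 1 of 14 ER chaperone and unfolded protein response genes. Matches of 9 members are printed because these letters are the core of the element that ATF4 and a C/EBP protein bind as a pair. Each line gives 11 bases on either side where the window reaches that far, on the strand that reads as the motif, with the 8 matching letters in capitals.
Trib3, chr3:161275536-161275565, plus strand: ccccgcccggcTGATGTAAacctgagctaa
Chac1, chr3:126795953-126795982, minus strand: cctagcaggagTGATGCAAcggcggagaag
Slc7a1, chr12:11664447-11664476, plus strand: cggcgcgcggcTGATGAAAccggctcggat
Iars, chr17:15193658-15193687, plus strand: gcgtctggaggTGATGCAAtactgacagtg
Mars, chr7:65023752-65023781, plus strand: ggagcccacgcTGATGCAAccggaacgggc
Yars, chr5:146820190-146820212, plus strand: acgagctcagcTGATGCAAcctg
Nars, chr18:60275778-60275807, minus strand: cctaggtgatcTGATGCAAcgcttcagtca
Tars, chr2:62114811-62114840, plus strand: agctaaccagcTGATGCAAcgggacgccag
Cars, chr1:208225334-208225363, plus strand: tttccagaatcTGATGCAAccgcggcgccg

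In 7 of the 9 printed matches the variable letter is C, Slc7a1 has A, and Trib3 has T. A match of letters is a description of the sequence and not evidence of binding in these cells. A window without a match says only that these letters are not in it.

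The authors merged the 3 libraries of a group into a single FPKM per gene, with lower and upper confidence bounds, so no value here has a standard deviation and no difference was tested. The bounds of the members reached, in the median, between 14.6% and 15.0% to either side of the value, depending on the group. Values given as differences were taken on the log2(FPKM + 1) scale; parentheses after them hold the widest span compatible with the bounds, named the range below. The words higher and lower are kept for genes that differ by at least 1 on that scale with a range clear of 0 (the size rule). Smaller differences are described by whether the range excludes 0. All 10 cardiomyocyte markers looked for had signal, with summed levels from 6921 FPKM (SR9009, 0 h) to 13665 FPKM (vehicle, 48 h). The sums are not over the same genes: Myh6 had no estimate in vehicle at 0 and 4 h and SR9009 at 48 h. It added 1192 FPKM to vehicle at 48 h, more than the lead of that sum over vehicle at 4 h (13339 FPKM). Fibroblast markers summed to between 952 FPKM (SR9009, 4 h) and 2115 FPKM (vehicle, 0 h), and 1 of those 10 genes, Col1a2, was listed at 0 in all groups. Since Col1a1 was abundant, a listed 0 can be a failed estimate, also for Nupr1. Smooth muscle markers summed to between 1719 and 4647 FPKM, endothelial markers to between 13.1 and 26.8 FPKM and macrophage markers to between 11.0 and 26.4 FPKM. The 3 erythroid markers in the table summed to between 12.4 FPKM (vehicle, 48 h) and 167 FPKM (SR9009, 4 h). These lists moved between groups, and their part in the results below was not tested. In such bulk samples fewer cells of a type and less RNA per cell cannot be told apart.

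Across the 6 groups most members were lowest in SR9009-treated cells after 48 h of PE, while the group with the highest level varied more among them. The levels of the 36 genes summed to 1813, 1791 and 2073 FPKM in vehicle at 0, 4 and 48 h, and to 2630, 2328 and 1115 FPKM with SR9009. The vehicle sums lay close together, and the lowest and the highest of the 6 sums were both in the SR9009 arm. SR9009 at 48 h was the lowest group for 32 of 36 members (88.9%), against 17.5% of 10385 genes with an estimate above 0 in every group. For 18 of 36 members, against 0.684% of genes, the upper bound there lay below the lower bounds of all other groups. SR9009 at 0 h was the highest group for 20 members (55.6%), against 15.1% of genes, and clear of all others for 7 (19.4%), against 0.732%. Another 10 members were highest with SR9009 at 4 h, among them 5 of the 13 synthetases, against 4 at 0 h. The share of all genes with that highest group was not computed. The summed levels of synthesis genes and of transporters were also highest at 4 h, with 405 and 418 FPKM against 379 and 408 FPKM at 0 h. Altogether 16 members (44.4%) were highest with SR9009 at 0 h and lowest with it at 48 h, against 2.66%. The plot of levels shows 8 of the members.

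**Figure D1:**
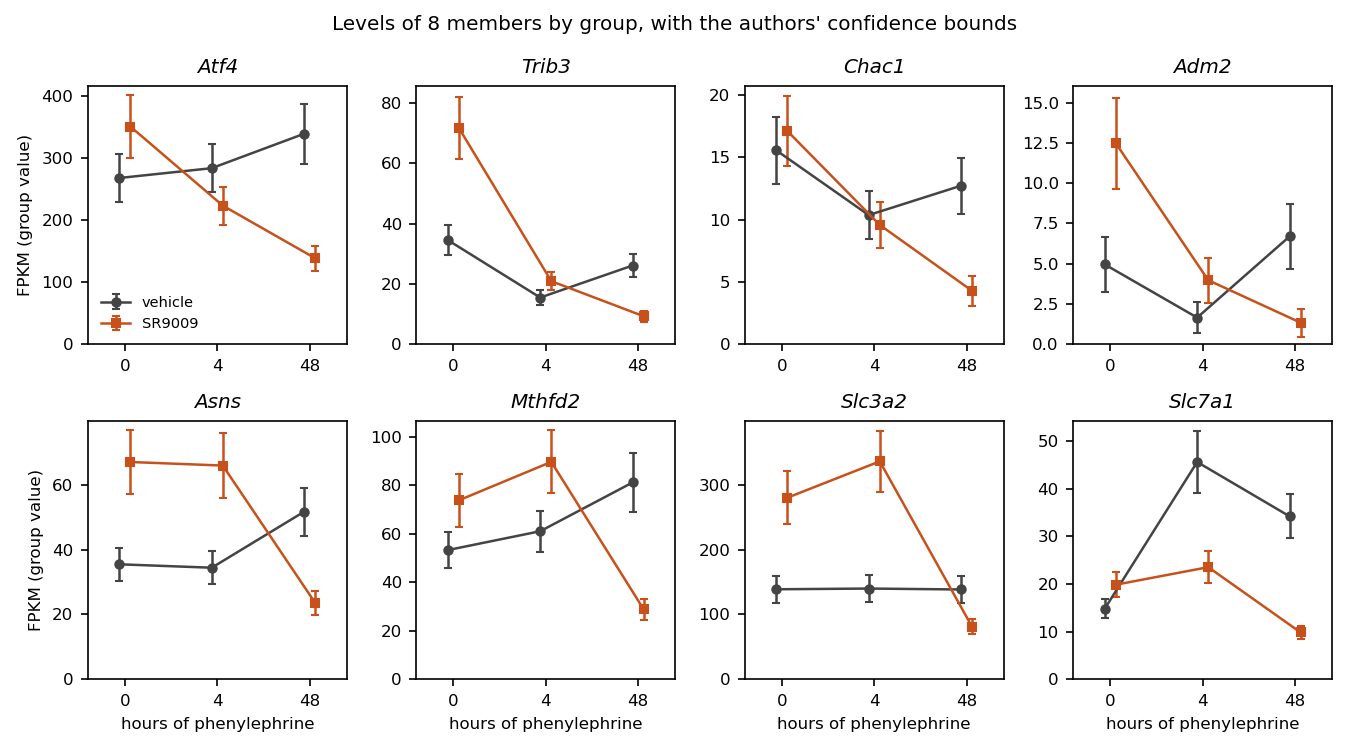
FPKM of 8 member genes (vertical axis, from 0) against hours of PE (horizontal axis, not to scale) in vehicle (dark circles) and SR9009 (orange squares); points are the authors' group values of 3 libraries and bars their confidence bounds. With SR9009 the level at 48 h is the lowest of the 6 in all 8 genes, from 1.34 FPKM for Adm2 to 139 FPKM for Atf4.

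The comparison of SR9009 with vehicle at 0 h asked what the agonist did to these genes in unstimulated myocytes. All 36 members were above 0, with a median of 0.44, where the median of all genes was -0.01. The size rule was met by 4 members as higher (11.1%), against 0.499% of all genes, and by 0 as lower, against 0.566%. The range lay above 0 in 20 members (55.6%), against 3.95% of genes, and below 0 in 0, against 5.90%. In the same comparison all 9 cardiomyocyte markers with an estimate were below 0, with a median of -0.47, and all 6 macrophage markers, with a median of -0.73. The part of either in the result was not tested.

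Trib3, a pseudokinase that ATF4 induces and that restrains it in turn, had 34.5 FPKM in vehicle and 71.7 with SR9009 (rn6 chromosome 3, 147814066 to 147819650). Its difference was 1.03 (0.63 to 1.43), and the bounds of the 2 groups did not overlap. Adm2, which encodes the secreted peptide intermedin, stood at 4.95 and 12.5 FPKM, a difference of 1.18 (0.48 to 1.94) and the largest among the members. The other 2 called genes encode partners: Slc7a11 is the cystine importer of system xc- and Slc3a2 the heavy chain, CD98hc, that carries it to the membrane. Slc7a11 (chromosome 2, 139453774 to 139528162) had 3.30 and 8.27 FPKM and differed by 1.11 (0.77 to 1.44), and Slc3a2 (chromosome 1, 224906566 to 224921029) had 139 and 281 FPKM and differed by 1.01 (0.58 to 1.44). Slc7a11 is also a well-known target of the oxidative stress factor NRF2. Slc7a5, the large neutral amino acid transporter that uses the same heavy chain, had 53.5 and 98.8 FPKM, a difference of 0.87 (0.45 to 1.29).

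Below the size rule, asparagine synthetase (Asns, chromosome 4, 33743364 to 33760716) had 35.5 FPKM in vehicle and 67.0 with SR9009, a difference of 0.90 (0.49 to 1.31). Ddit4, which restrains mTORC1, had 9.90 and 18.9 FPKM, and Cebpb, a C/EBP factor that can pair with ATF4, 37.4 and 64.0 FPKM. The lower bounds with SR9009 lay above the upper bounds with vehicle for these 3 genes. Atf4 itself (chromosome 7, 121480723 to 121482781) had 268 and 351 FPKM, a difference of 0.39 (-0.04 to 0.81), and its bounds overlapped. Of the 13 synthetases all were above 0, by between 0.22 (Cars) and 0.80 (Wars), and the range excluded 0 in 5. Chac1, a γ-glutamylcyclotransferase that degrades glutathione, had the smallest difference of all members, 0.13 (-0.33 to 0.59).

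PE for 4 h in vehicle was set against 0 h. The members did not move together: 17 were above 0 and 19 below, with a median of -0.03, and the counts meeting the size rule were 1 higher (2.78%, against 2.75% of genes) and 3 lower (8.33%, against 2.32%). The range lay above 0 in 2 members, against 14.0% of genes, and below 0 in 9 (25.0%), against 14.0%. Stress effectors and factors made up most of the lower side. Trib3 went from 34.5 to 15.5 FPKM, a difference of -1.11 (-1.53 to -0.69), and Adm2 at 4.95 and 1.65 FPKM, a difference of -1.17 (-2.16 to -0.24). Atf5, an ATF4-related factor of the mitochondrial stress response (chromosome 1, 100808247 to 100810522), had 95.1 and 44.2 FPKM, a difference of -1.09 (-1.50 to -0.67). Ddit3, which encodes the C/EBP-related factor CHOP, had 52.8 and 26.8 FPKM, a difference of -0.95 (-1.94 to -0.06). Atf4 had 268 and 284 FPKM, and its bounds overlapped.

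The single member called higher at 4 h was Slc7a1, the cationic amino acid transporter for arginine and lysine (chromosome 12, 8032775 to 8108972). It had 14.8 FPKM at 0 h, 45.7 at 4 h and 34.2 at 48 h in vehicle. The difference was 1.56 (1.18 to 1.94) at 4 h and 1.15 (0.78 to 1.52) at 48 h. It was the only member whose highest group was vehicle at 4 h with a lower bound above the upper bounds of all other groups.

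After 48 h of PE in vehicle 24 of 36 members were above 0, with a median of 0.21 against 0.01 for all genes. With equal column sums the members' median was 0.01, with the median of all genes shifted by -0.20. All 9 fibroblast markers with an estimate were below 0 here, with a median of -1.24 and 6 called lower, and the range lay below 0 in 5 of 7 endothelial markers. Their part was not tested. The size rule was met by 1 member as higher, Slc7a1 (2.78%, against 4.87% of genes), and by 1 as lower, Atf5, with 40.1 FPKM (2.78%, against 3.96%). Neither share exceeded that of all genes. The range lay above 0 in 11 members (30.6%), against 17.1% of genes, and below 0 in 4 (11.1%), against 14.7%. Synthetases were 7 of those 11: all 13 synthetases were above 0, from 0.04 (Mars) to 0.92 (Wars), with a median of 0.44. These 2 counts were not recomputed with equal column sums. The shift, -0.202, exceeds in size the differences of Mars, Aars (0.13), Sars (0.15) and Cars (0.196). It also exceeds the lower ends of the ranges of Gars (0.02), Nars (0.02), Tars (0.04) and Vars (0.07), so both counts depend on the scaling. The lower ends of Iars (0.204) and Yars (0.210) lie just above it, and the shift of a single gene can differ from that of the median. Wars, the tryptophanyl-tRNA synthetase, went from 28.8 to 55.3 FPKM, a difference of 0.92 (0.60 to 1.22). Mitochondrial one-carbon enzymes were also in this group, Shmt2 with 45.4 and 75.6 FPKM and Mthfd2 with 53.2 and 81.1 FPKM, as was Asns with 35.5 and 51.7 FPKM. Below 0 were Cebpb, with 37.4 and 21.0 FPKM, Psat1 of the serine pathway, with 26.3 and 16.6 FPKM, and the mitochondrial folate enzyme Aldh1l2, with 6.56 and 4.25 FPKM, beside Atf5. With all FPKM columns rescaled to equal sums the 48 h counts were 0 higher and 2 lower, and Slc7a1 was at 0.94. The vehicle group at 0 h enters both PE comparisons in vehicle and the SR9009 comparison at 0 h.

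At 4 h of PE the SR9009 arm lay above vehicle in 27 of 36 members, with a median of 0.34 against -0.06 for all genes. The size rule was met by 2 as higher (5.56%, against 0.499% of genes) and by 0 as lower, against 1.05%. The range lay above 0 in 14 members (38.9%), against 4.10% of genes, and below 0 in 2 (5.56%), against 10.4%. The hemoglobin genes Hba1 and Hbb were called higher as well, at 1.46 and 1.11. Medians were -0.46 for the cardiomyocyte and -0.68 for the macrophage markers. The part of these was not tested. Slc3a2 had 140 FPKM in vehicle and 337 with SR9009, a difference of 1.26 (0.85 to 1.67), and Ddit4 had 9.30 and 20.1 FPKM, a difference of 1.04 (0.60 to 1.48). All 8 synthesis and one-carbon genes were above 0, with a median of 0.64. Asns had 34.4 and 66.0 FPKM, a difference of 0.92 (0.49 to 1.35), and Phgdh, which opens the serine pathway, 51.2 and 90.9 FPKM, a difference of 0.82 (0.40 to 1.24).

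At this time Atf4 and these enzymes stood on opposite sides of vehicle. Atf4 had 284 FPKM in vehicle and 224 with SR9009, a difference of -0.34 (-0.74 to 0.05), so its bounds overlapped. The synthetases had separated too: Wars differed by 0.89 (0.53 to 1.26) and Sars by 0.63 (0.20 to 1.05), while Cars, with 32.8 and 23.6 FPKM, differed by -0.46 (-0.83 to -0.09). Slc7a1 had 45.7 FPKM in vehicle and 23.5 with SR9009, a difference of -0.93 (-1.33 to -0.53). Its PE difference at 4 h was 1.56 in vehicle and 0.23 (-0.15 to 0.61) in the SR9009 arm. The interaction, the PE difference with SR9009 minus that with vehicle, was -1.32 (-2.09 to -0.56). Slc7a1 was the 1 member that met the size rule for this interaction as lower (2.78%, against 0.346% of genes), and 0 met it as higher, against 0.0770%. It was also the 1 member with a range below 0 here, against 0.731% of genes.

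At 48 h of PE the direction was the other way. Of the 36 members 35 were below 0 with SR9009, with a median of -0.77 against -0.04 for all genes, and the remaining gene, Cebpb, was at 0.03 (-0.38 to 0.43). The size rule was met by 12 as lower (33.3%, against 4.55% of genes) and by 0 as higher, against 2.33%. The range lay below 0 in 27 members (75.0%), against 17.3% of genes, and above 0 in 0, against 11.3%. The 0 h and 48 h comparisons share no group. A difference above 0 at 0 h and below 0 at 48 h was found in 35 members (97.2%), against 28.0% of genes. With the range clear of 0 at both times it was found in 16 members (44.4%), against 1.33%. At 48 h the cardiomyocyte markers had a median of 0.36, the fibroblast markers 0.55 and the smooth muscle markers -0.74, and their part was not tested. The plot of SR9009 differences shows the members at each time.

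**Figure D2:**
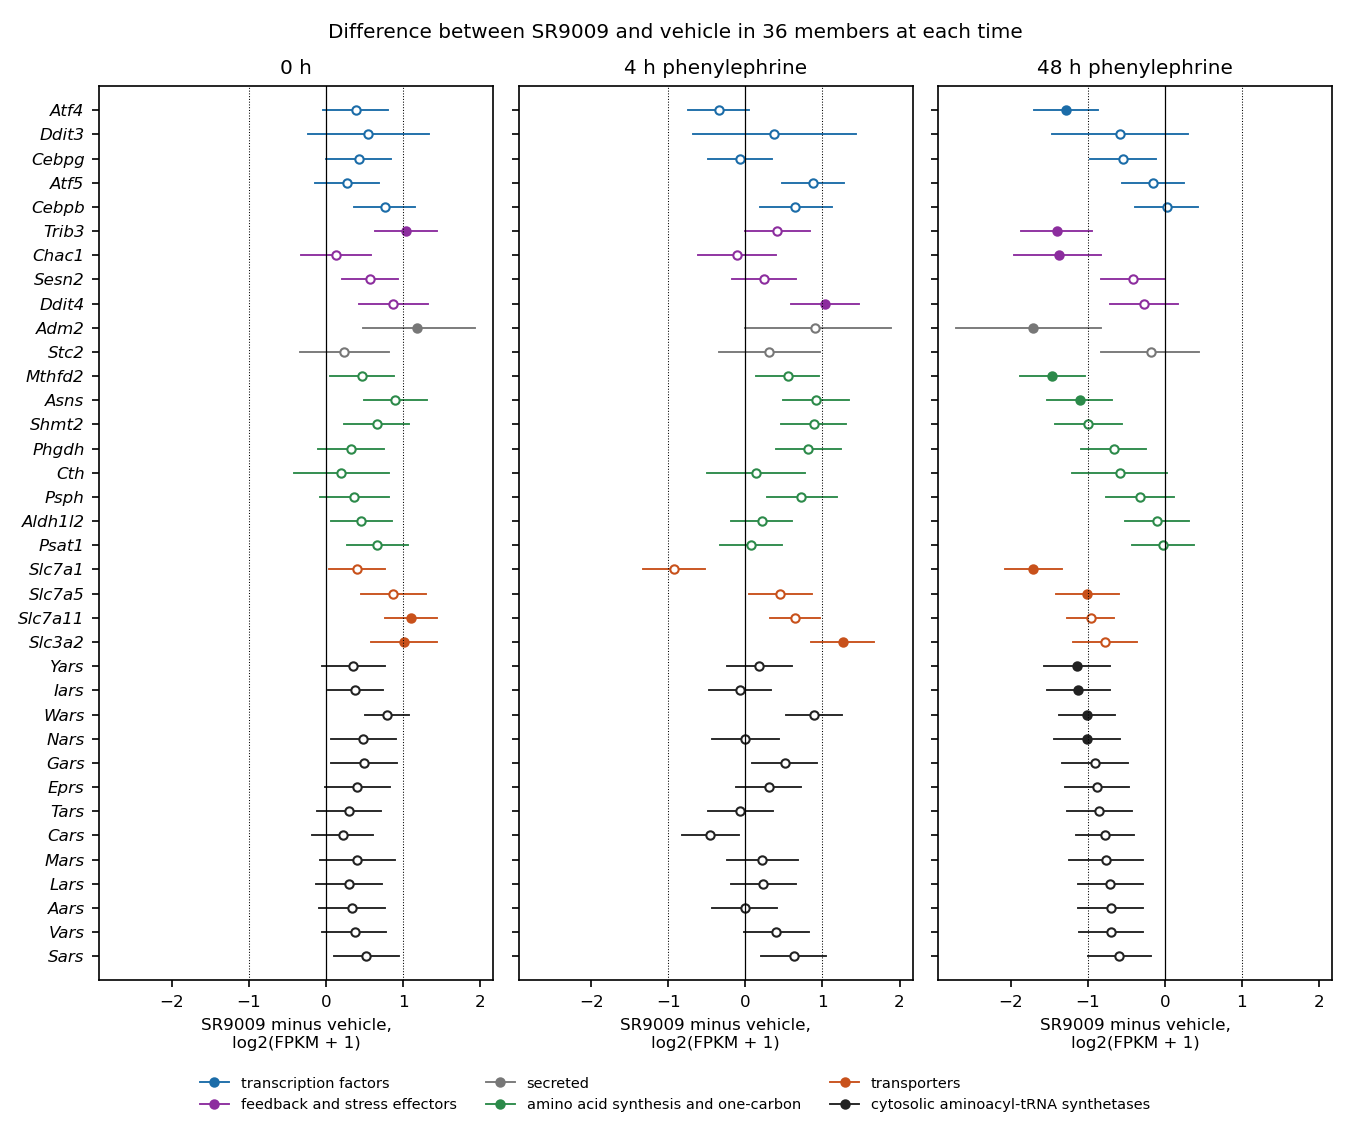
Difference between SR9009 and vehicle in log2(FPKM + 1) (horizontal axis) for the 36 members (rows, coloured by role) at 0 h, 4 h and 48 h of PE; lines are the range as defined above, filled points met the size rule and dotted lines mark -1 and 1. All 36 points lie above 0 at 0 h, 27 at 4 h and 1 at 48 h.

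Among the factors at 48 h, Atf4 was the one called, with 340 FPKM in vehicle and 139 with SR9009, a difference of -1.29 (-1.70 to -0.87), or 2.45-fold. Cebpg, the C/EBP protein that pairs with ATF4 on amino acid response genes, had 30.4 and 20.5 FPKM, a difference of -0.55 (-0.97 to -0.12). Ddit3 had 47.2 and 31.1 FPKM, but its range was -1.46 to 0.30. The table gives Ddit3 and its neighbour Mars the same locus (chromosome 7, 70580252 to 70602310), so the split of reads between them is uncertain. Atf5 differed by -0.15 (-0.56 to 0.25). Atf4 and Cebpg were clear of their vehicle bounds, while Atf5, Ddit3 and Cebpb overlapped theirs.

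Of the 4 feedback and stress effectors 2 were called lower. Trib3 had 26.1 FPKM in vehicle and 9.30 with SR9009, a difference of -1.40 (-1.87 to -0.94), and Chac1 (chromosome 3, 111160205 to 111163425) had 12.7 and 4.28 FPKM, a difference of -1.38 (-1.96 to -0.83). Sesn2, a leucine sensor that holds back mTORC1, had 23.5 and 17.4 FPKM, a difference of -0.41 whose range reached from -0.82 to just below 0. Ddit4 had 10.0 and 8.10 FPKM and overlapping bounds. Of the secreted products, Adm2 (chromosome 7, 130296895 to 130298641) was called lower, with 6.69 and 1.34 FPKM and a difference of -1.72 (-2.71 to -0.83). Stc2, a stanniocalcin, had 10.9 and 9.44 FPKM with overlapping bounds.

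Of the 8 synthesis and one-carbon genes 2 met the size rule as lower at 48 h, and the range lay below 0 in 4. Mthfd2, the mitochondrial methylenetetrahydrofolate dehydrogenase (chromosome 4, 115004448 to 115015965), had 81.1 FPKM in vehicle and 28.8 with SR9009, a difference of -1.46 (-1.88 to -1.04). Its partner Shmt2, which takes a one-carbon unit from serine, had 75.6 and 37.5 FPKM, a difference of -0.99 (-1.42 to -0.56). Asns had 51.7 and 23.5 FPKM, a difference of -1.10 (-1.53 to -0.68). Of the 3 enzymes that make serine, Phgdh differed by -0.67 (-1.09 to -0.24), Psph by -0.32 (-0.77 to 0.12) and Psat1, with 16.6 and 16.3 FPKM, by -0.03 (-0.42 to 0.37). In vehicle Psat1 differed by -0.63 (-1.03 to -0.23) between 48 h and 0 h, as given above by its levels. Cth, the cystathionine lyase that makes cysteine, had 4.44 and 2.63 FPKM and Aldh1l2 4.25 and 3.89 FPKM, both with a range that includes 0.

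All 4 transporters had bounds below those of vehicle at 48 h, and SR9009 at 48 h was the lowest group for each, clear of the other 5. Slc7a1 had 34.2 FPKM in vehicle and 9.81 with SR9009, a difference of -1.71 (-2.07 to -1.33), or 3.49-fold. Slc7a5 (chromosome 19, 54693959 to 54722563) had 51.5 and 25.1 FPKM, a difference of -1.01 (-1.41 to -0.60), and Slc7a11 had 4.05 and 1.59 FPKM, a difference of -0.96 (-1.27 to -0.66). Slc3a2 had 139 and 80.8 FPKM, a difference of -0.77 (-1.19 to -0.36). The arginine carrier, which needs no heavy chain, thus had the largest difference of the 4.

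All 13 synthetases lay below vehicle at 48 h, with differences from -1.14 (Yars) to -0.59 (Sars), a median of -0.85 and a range below 0 in all 13. The tyrosyl-tRNA synthetase Yars had 50.4 FPKM in vehicle and 22.3 with SR9009, the isoleucyl enzyme Iars (chromosome 17, 15356016 to 15402631) 61.8 and 27.8 FPKM, Wars 55.3 and 26.9 FPKM and the asparaginyl enzyme Nars 101 and 49.7 FPKM. These 4 met the size rule. Wars (-1.01), Nars (-1.01) and the transporter Slc7a5 did so narrowly: under the 3 rescalings of the columns tried they lay between -0.97 and -0.90 and no longer met it. Asns, at -0.99, did not meet it with equal column sums. The least moved, the seryl enzyme Sars, had 116 and 76.8 FPKM. Summed over the 13 genes, the level was 967 FPKM in vehicle and 536 FPKM with SR9009, against 757 and 1020 FPKM at 0 h.

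Within the SR9009 arm, 48 h of PE was set against 0 h. All 36 members were below 0, with a median of -1.07 against -0.03 for all genes. All 9 cardiomyocyte markers with an estimate were above 0, with a median of 0.95 and 4 called higher, and the range lay below 0 in 5 of 9 fibroblast markers. Their part was not tested. The size rule was met by 19 as lower (52.8%, against 1.16% of genes) and by 0 as higher, against 1.26%, and the range lay below 0 in 34 (94.4%), against 9.56%, and above 0 in 0, against 9.49%. Trib3 went from 71.7 to 9.30 FPKM, a difference of -2.82 (-3.30 to -2.36), or 7.71-fold, and Adm2 from 12.5 to 1.34 FPKM, a difference of -2.52 (-3.46 to -1.73). The heteromeric transporters followed, Slc7a5 at -1.93 (-2.34 to -1.52), Slc7a11 at -1.84 (-2.16 to -1.51) and Slc3a2 at -1.78 (-2.20 to -1.37), and Chac1 was at -1.78 (-2.35 to -1.24). Among the factors Atf5 had -1.65 (-2.06 to -1.24), Cebpb -1.54 (-1.97 to -1.11), Atf4 -1.33 (-1.76 to -0.91) and Ddit3 -1.29 (-2.12 to -0.49). Asns (-1.47), Phgdh (-1.34), Mthfd2 (-1.33), Psat1 (-1.32), Aldh1l2 (-1.09), Sesn2 (-1.17), Ddit4 (-1.13), Mars (-1.13) and Nars (-1.05) were the other members called.

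The 3 members that met the size rule as lower at 4 h were also among these 19. Both comparisons subtract SR9009 at 0 h, the highest group of all 3, so the 2 sets of calls are not independent. The overlap was not counted over all genes. At 4 h of PE in the SR9009 arm 3 members met the size rule as lower (8.33%, against 2.65% of genes) and 0 as higher, against 1.83%, and the range lay below 0 in 14 (38.9%), against 16.0%, and above 0 in 1 (2.78%), against 11.5%. Trib3 stood at 20.9 FPKM, a difference of -1.73 (-2.14 to -1.32), Adm2 at 3.97 FPKM, a difference of -1.44 (-2.19 to -0.74), and Ddit3 at 34.8 FPKM, a difference of -1.13 (-2.08 to -0.27). All 5 factors had a range below 0. By contrast Asns, with 67.0, 66.0 and 23.5 FPKM at 0, 4 and 48 h, Slc3a2, with 281, 337 and 80.8 FPKM, and Shmt2, with 72.3, 101 and 37.5 FPKM, were not below their 0 h bounds at 4 h. Of the synthetases 7 were above 0 and 6 below at 4 h, with a median of 0.07.

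The interaction at 48 h measured whether the PE difference itself was unlike between the arms, and equals the SR9009 difference at 48 h minus that at 0 h. It was below 0 in all 36 members, with a median of -1.16 against -0.03 for all genes. The size rule was met by 24 as lower (66.7%, against 5.34% of genes) and by 0 as higher, against 3.71%. The range lay below 0 in 28 (77.8%), against 7.68%, and above 0 in 0, against 5.51%. The largest was Adm2 at -2.89 (-4.65 to -1.30), followed by Trib3 at -2.43 (-3.31 to -1.57), Slc7a1 at -2.10 (-2.83 to -1.37), Slc7a11 at -2.07 (-2.71 to -1.43) and Asns at -2.00 (-2.84 to -1.17). Of the synthetases 12 of 13 met the rule, led by Wars at -1.81 (-2.45 to -1.15), and Cars came close at -0.99 (-1.77 to -0.21). Those called with the smallest size were Lars, just past the rule, Aars (-1.04), Vars (-1.07) and Sars (-1.11), and each of these no longer met the rule under at least 1 rescaling. Not called were 4 of the 5 factors, Atf4 being the exception at -1.67 (-2.51 to -0.83). A PE difference above 0 in vehicle and below 0 with SR9009 was found in 24 members (66.7%), against 25.0% of genes, as the plot of the PE differences by arm shows. For the 48 h interaction the fibroblast markers had a median of 1.05, with 5 of 9 called higher. The cardiomyocyte markers had 0.53, with 4 of 9 called higher and 1 lower, and the smooth muscle markers -0.63. Their part was not tested.

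**Figure D3:**
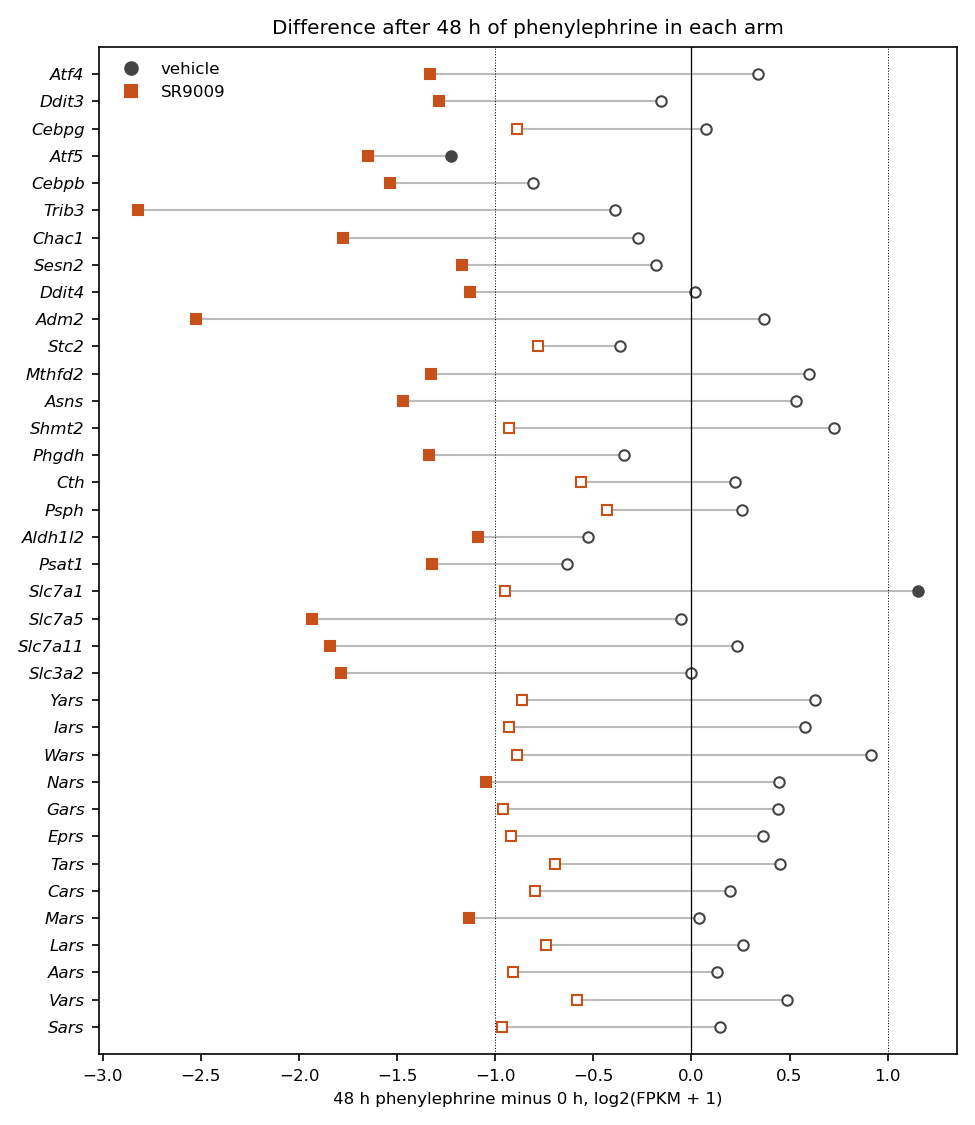
Difference between 48 h of PE and 0 h in log2(FPKM + 1) (horizontal axis) for the 36 members (rows), in vehicle (dark circles) and with SR9009 (orange squares); filled symbols met the size rule, grey lines join the arms and dotted lines mark -1 and 1. The SR9009 symbol lies left of the vehicle symbol in all 36 rows, and 19 SR9009 symbols are filled against 2 in vehicle.

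Other genes of tRNA charging served as a comparison. The 10 remaining cytosolic synthetase and scaffold genes had a median SR9009 difference of 0.19 at 0 h and -0.59 at 48 h, where the member synthetases had 0.38 and -0.85. None of the 10 met the size rule at either time, the range excluded 0 in 0 of them at 0 h, and it lay below 0 in 6 at 48 h. The glutaminyl enzyme Qars was above 0 at 48 h (0.28), and Farsb, a phenylalanyl enzyme subunit, was lowest (-0.81). The 15 mitochondrial synthetases, which charge tRNAs inside the organelle, had medians of -0.05 at 0 h and 0.21 at 48 h, with 0 meeting the size rule at either time and a range above 0 in 2 and below 0 in 0 at 48 h. The difference between these lists was not tested. The ER chaperone and unfolded protein response list resembled the members in sign: 16 of 17 genes were above 0 at 0 h, with a median of 0.34, and 17 of 17 below 0 at 48 h, with a median of -0.43, where 1 met the size rule. The range lay above 0 in 7 at 0 h, against 3.95% of genes, and below 0 in 8 at 48 h. For 48 h of PE against 0 h with SR9009 it lay below 0 in 16, against 9.56% of genes. There 5 were called lower, against 1.16%. The 48 h interaction was below 0 in all 17, with 5 called lower, against 5.34% of genes. Among all genes 4912 of 10415 were above 0 at 0 h and 5689 of 10408 below 0 at 48 h. At 48 h the range lay below 0 in 17.3% of genes and above 0 in 11.3%, and 4.55% met the size rule as lower.

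**Figure D4:**
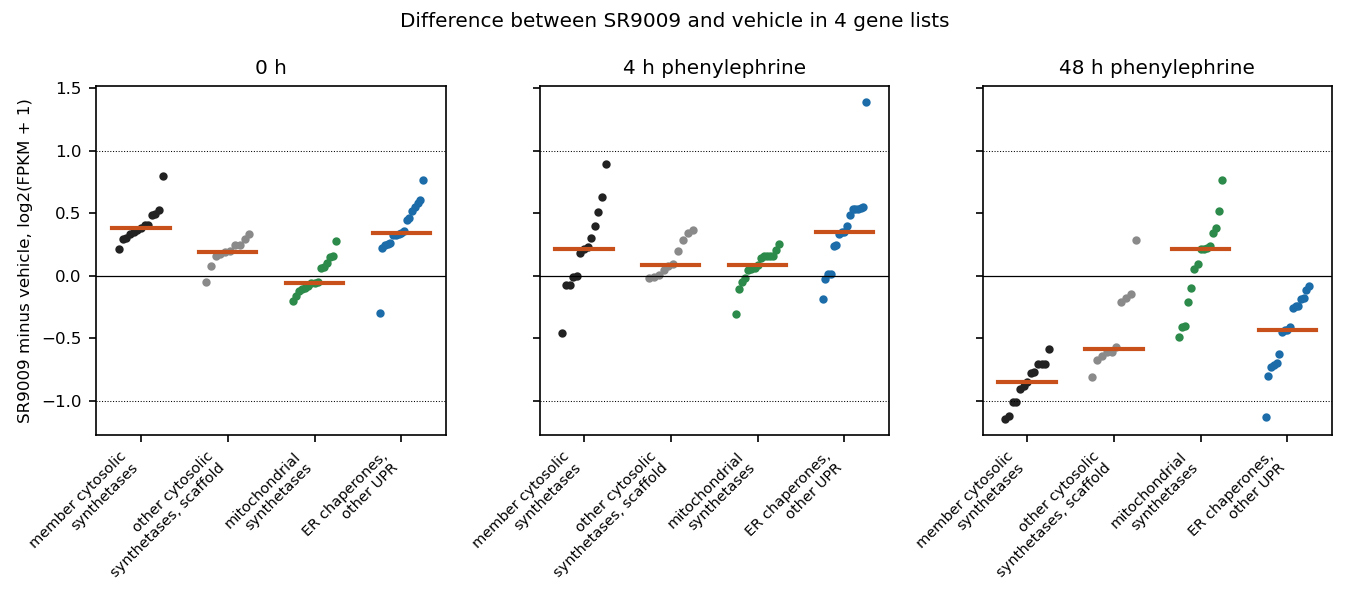
Difference between SR9009 and vehicle in log2(FPKM + 1) (vertical axis) at 0 h, 4 h and 48 h of PE for 13 member synthetases, 10 other cytosolic synthetase and scaffold genes, 15 mitochondrial synthetases and 17 ER chaperone and unfolded protein response (UPR) genes; each point is a gene, sorted within its list, orange bars are list medians and dotted lines mark -1 and 1. At 48 h the median is -0.85 for the member synthetases and 0.21 for the mitochondrial ones.

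The kinases and phosphatases of eIF2, regulators of the kinase GCN2 and subunits of eIF2 and of its exchange factor eIF2B made a list of 14 genes. With SR9009 11 of 14 were above 0 at 0 h, against 4912 of 10415 genes, and 11 of 14 below 0 at 48 h, against 5689 of 10408. The medians were 0.08 and -0.28, and 13 of 14 were below 0 for the 48 h interaction, against 5456 of 10394 genes. The range lay below 0 in 5 at 48 h, against 17.3% of genes. Of the 14 genes 0 met the size rule for SR9009 at 0 h, against 0.499% of genes as higher and 0.566% as lower. At 48 h 1 met it as lower, against 4.55% of genes. That gene was Ppp1r15a, the stress-induced phosphatase subunit GADD34, with 56.7 FPKM in vehicle and 21.6 with SR9009, a difference of -1.35; at 0 h it had 20.6 and 30.5 FPKM. The ER stress kinase gene Eif2ak3 (PERK) had 12.3 and 8.33 FPKM at 48 h and the amino acid sensing kinase gene Eif2ak4 (GCN2) 6.72 and 7.63 FPKM. Levels of the messages say nothing of kinase activity.

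In the list of 12 other amino acid metabolism genes 3 met the size rule as lower with SR9009 at 48 h, against 4.55% of genes. As higher 1 met it, against 2.33% of genes. Pycr1, the last enzyme of proline synthesis, had 8.57 FPKM in vehicle and 1.81 with SR9009, a difference of -1.77, after 4.30 and 7.78 FPKM at 0 h and 3.87 and 14.6 FPKM at 4 h. Bcat1, the cytosolic branched-chain aminotransferase, differed by -1.29 and Mthfd1l by -1.14, while the mitochondrial Bcat2 was higher by 1.18. Of 12 other amino acid transporters 1 was lower at 48 h, against 4.55% of genes: Slc7a3 at -1.67, another cationic amino acid carrier. A single call in a list of this size is no result about the list. Below 0 were 11 of the 12, against 5689 of 10408 genes. Of 7 other ATF4-associated genes 3 were lower at 48 h, against 4.55% of genes. They were Atf3, a factor of the same family, at -2.51, the stress hormone Gdf15 at -1.43 and the lipoprotein receptor Vldlr at -1.42. Of the 7 genes 5 were below 0 at 48 h, against 5689 of 10408 genes, and 2 above. Unlike most members, Atf3 was called higher with PE in vehicle, with 3.11, 15.1 and 22.6 FPKM at 0, 4 and 48 h. With SR9009 it was called lower already at 4 h (-1.16).

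The promoter letters printed above were set beside the differences. The 10 members with a match had a median SR9009 difference of -1.07 at 48 h (from -1.71 to -0.70), and the 24 matched members without had -0.68 (from -1.72 to 0.03). At 0 h the order was the other way, with medians of 0.37 and 0.54, and at 4 h the medians were -0.04 and 0.59. Synthetases are 7 of the 10 members with a match, so match and role are mixed in this contrast, which was not tested. Genes without the letters in the window include Asns, Mthfd2 and Slc7a11, which were called lower or had bounds clear of vehicle at 48 h, so members without a match were among those clear of vehicle too.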

How the data were processed

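RNA of 18 libraries (6 groups of 3, stranded mRNA kit) was sequenced, per the labels' protocols. Per the submitters' processing notes the tools were FastQC, Trim Galore, TopHat and Cuffdiff (no versions given) and the build was rn6. The authors deposited 1 FPKM per gene and group with confidence bounds whose level is not given in the sources used here. Depth is unknown. Groups follow the sample titles. The members, lists and rules were chosen with earlier results of these data known. Values without status OK and 172 values outside their own bounds were treated as missing, and no difference was computed against a listed 0. A pseudocount of 1 was used, which understates differences of low genes. Member coordinates are rn6, as in the table. Python 3.11.15 with pandas 2.3.3 was used, and the size rule was tested on simulated data. Members named with values are those called in a comparison, a fixed set (Atf4, Ddit3, Trib3, Asns, Chac1, Sesn2, Fgf21, Atf5), and the extremes of each role; of other lists at most 4 genes that met the size rule. Others (Eif2ak3, Eif2ak4, Qars, Farsb and uncalled members) were named after their values were seen. The promoter sequence of 1 member with a match is not reported here.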

Additional observations from a re-analysis of the deposited data

How the results depend on the processing

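No paired analysis was possible because the table holds 1 value per group; for the same reason leaving out a replicate was not run. The 6 alternatives were a pseudocount of 0.1, no filter, a mean of at least 5 FPKM, equal column sums, median centring and quantile normalization. Of 108 recomputed counts of members, 105 were within 1.5 times the reported count, which includes reported counts of 0 that stayed at 0. With equal sums, which shifted the median of all genes by -0.18 and -0.20 for PE at 4 and 48 h in vehicle, by -0.12 at 4 h with SR9009 and by 0.10 for the 48 h interaction, PE at 48 h in vehicle had 0 higher and 2 lower, and PE at 4 h with SR9009 had 5 lower. All 54 medians moved by less than the median half-width of the members' ranges. That limit is wide: the fall of the PE 48 h median in vehicle with equal sums, given above, also passed it. Of 423 values of called members 20 no longer met the size rule: 9 with equal sums, 4 with median centring and 7 with quantile normalization. The 71 values with no filter and the 68 with a mean of at least 5 FPKM could not change. A filter leaves the difference of a gene as it was. Of the 423 values 0 changed sign, but called differences are at least 1 in size, so this was unlikely from the start. The cause of the 20 losses was not tested. Read depth is unknown, so precision rests on the authors' bounds.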

Other observations

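The letters TGATGNAA were also found in promoter windows of genes outside the 36 described above. Pycr1 and Slc38a1, a glutamine carrier, had SR9009 differences of 0.73 and 0.50 at 0 h and of -1.77 and -0.97 at 48 h of PE. Slc1a4, a carrier of neutral amino acids, and Pck2, the mitochondrial PEP carboxykinase, had 0.24 and 0.55 at 0 h and -0.81 and -0.44 at 48 h. Got1, the cytosolic aspartate aminotransferase, holds the letters too but was at -0.52 at 0 h and 0.07 at 48 h, and Jdp2, a bZIP factor, at -0.30 and 0.38. The remaining genes with a match in the lists searched were Ppp1r15b, at 0.16 and -0.60, and Herpud1, at 0.52 and -0.08. These genes were named after their windows had been searched.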
